A study of Mus musculus with 14 samples.

Results

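The Dnmt1 stop site is the stretch of Dnmt1 exon 18 that a single sgRNA addresses, and it was read here in every embryo in which it was amplified, with that sgRNA injected alone or together with others. The members are all blocks of the tables whose heading names Dnmt1, whether or not the embryo belongs to a labelled sample, and control embryos are kept apart. This gave 50 windows out of 306 windows of 6 genes in 88 embryos. They comprise 38 embryos that received the Dnmt1 sgRNA, of which 24 belong to labelled samples and 14 carry numbers that no labelled sample has, and 12 control windows. The labelled embryos form 8 samples, 2 in each of 4 groups.

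Zygotes were injected with mRNA of hA3A-eBE3-Y130F, a cytosine base editor, and with sgRNAs that direct it to chosen codons. Dnmt1-KO embryos received the Dnmt1 sgRNA only, Dnmt-TKO embryos those for Dnmt1, Dnmt3a and Dnmt3b, 4KO embryos those for Tet1, Tet2, Tet3 and Dnmt1, and 6KO embryos all of these. Per the labels, all groups came from C57BL/6 males and F1 females, so every embryo carries part of a second strain's genome. The control embryos, per the study's supplementary list, received the editor mRNA without an sgRNA. Each edited animal is its own founder and can hold several edited alleles, and each window describes a single embryo. The criteria by which embryos were picked for sequencing were not found in the sources used here. The tables hold E9.5 and E10.5 embryos for Dnmt1-KO, E6.5 to E9.5 for Dnmt-TKO, E7.5 to E9.5 for 4KO and E6.5 to E8.5 for 6KO.

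DNMT1 is the maintenance DNA methyltransferase. After replication it copies methylation from the parental strand onto the newly made strand, and UHRF1, which reads hemimethylated CpG sites, guides it there. DNMT3A and DNMT3B set methylation de novo, and the TET enzymes oxidise 5-methylcytosine. Mouse embryos without DNMT1 lose most of their methylation and die in mid-gestation. The catalytic domain of DNMT1 lies at the C-terminal end of the protein, so a stop codon in the N-terminal regulatory part removes it. The editor is a fusion of a nicking Cas9 with a cytidine deaminase and an inhibitor of uracil glycosylase. The deaminase, here from human APOBEC3A, acts on C in single-stranded DNA and favours a C that follows T. The resulting U is read as T. Removal of the U by glycosylase and repair across the gap can give A or G in place of T.

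The protospacer is shown with the C that was edited to make the stop codon (position 7) and the bystander C in the same editing region (position 3) in capitals, followed by the sequence with T at position 7 and by that with T at both positions, where the capitals mark the T. Positions count from 1 at the 5′ end of the protospacer.
Protospacer, reference: atCaatCagtggtggctcag
Stop codon only: atcaatTagtggtggctcag
Stop codon and bystander: atTaatTagtggtggctcag

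The protospacer lies at chr9:20923746-20923765 on the minus strand of GRCm38 and is followed by the PAM TGG. With the PAM it matched the chromosomes of that build at 1 place. Dnmt1 (ENSMUSG00000004099.16) spans chr9:20907209-20959888 on the same strand. The whole site is coding sequence of exon 18 of 39 and contains no intron or UTR base. The exon, chr9:20923702-20923794, is printed on the minus strand with the protospacer in capitals, since all substitutions below fall in it or in the bases next to it.
Dnmt1 exon 18: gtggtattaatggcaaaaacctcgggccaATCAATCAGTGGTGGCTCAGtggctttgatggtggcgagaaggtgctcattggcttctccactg

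C7T, a T read at position 7 (coordinate 20923759), turns the codon CAG into TAG. In transcript Dnmt1-201 this is Q469* in a protein of 1620 residues, 29.0% of the way along it. The same base change gives Q350* in Dnmt1-202 and Dnmt1-203, which encode 1501 residues, and Q351* in Dnmt1-207, which encodes 1502. In all 4 coding transcripts 21 exons follow the stop. Other bases at position 7 would not stop translation: C7A gives Q469K and C7G gives Q469E. The bystander at position 3 (coordinate 20923763) is the last base of the codon ATC for isoleucine 467. C3T and C3A are synonymous there, and C3G gives I467M. The 26-base window has 6 C in all. Those at positions 3, 7 and 18 follow a T, the context the deaminase favours. C18 is the last base of a leucine codon and C18T is synonymous. C16T gives L472F, and the C at positions -3 and -2, just before the protospacer, belong to proline 466.

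The stop was nearly complete in every edited embryo that was sequenced. In the paper, only some of the analysed blastocysts carried every intended stop of the Dnmt or the Tet and Dnmt set. Whether embryos were picked for complete editing is not known, so C7T here does not give the rate of the stop among injected embryos. Such a choice could also narrow the spread of C7T between embryos, groups and targets, which was not tested. C7T made up 96.06% to 99.91% of the reads in the 38 embryos, with a median of 99.51%, and it reached at least 99% in 32 of them. The 14 embryos without a labelled sample lay between 97.91% and 99.91% (median 99.44%), inside the range of the 24 labelled embryos (median 99.53%). In the 11 distinct control windows C7T was 0.0485% to 2.36%, with a median of 0.799%. Edited and control embryos did not overlap, so the base at position 7 went with the group name in each of them.

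**Figure D1:**
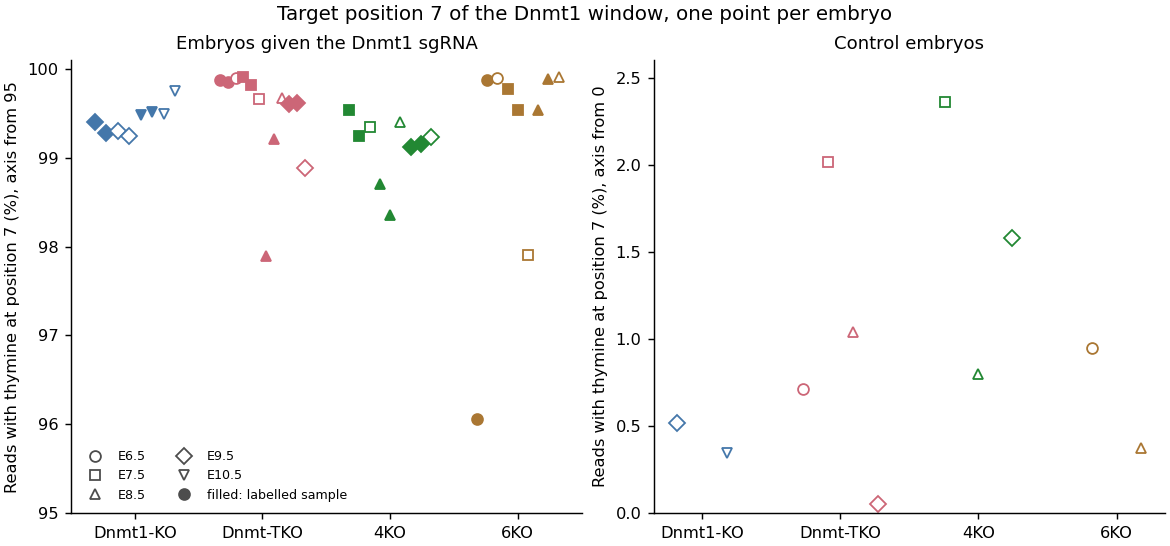
Share of reads with T at position 7 of the Dnmt1 window (vertical axis, percent), one point per embryo. Embryos given the sgRNA are on the left on an enlarged axis that does not start at 0, control embryos on the right on an axis from 0%. Marker shapes give the stage and filled markers the labelled samples. Edited embryos lie between 96.06% and 99.91%, controls between 0.0485% and 2.36%, and the E6.5 embryo of 6KO at 96.06% stands below the rest.

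The control windows call for a separate account. A pair of them, E6.5 in the Dnmt-TKO table and E7.5 in the 6KO table, holds the same values at all 25 positions that both give, so they were counted as 1, which leaves 11. The E10.5 control of the Dnmt1-KO table is the only window with a line of whole numbers, from 673061 to 673066 per position, which reads as depth although the file does not say so. For the other windows the read depth is unknown. C7T was below 1% in 7 of the 11. It was highest in the E7.5 controls of 4KO (2.36%) and Dnmt-TKO (2.02%). At the bystander position those embryos had 7% and 3% T, and the E6.5 control of 6KO had 11% T with 0.947% at position 7. The remaining controls had 0% or 1% T at position 3.

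The reads without the stop were in part unedited and in part changed to A or G. Unconverted C exceeded A plus G in 20 of 38 embryos: in 8 of 8 of Dnmt1-KO, 6 of 12 of Dnmt-TKO, 5 of 9 of 4KO and 1 of 9 of 6KO. Unconverted C at position 7 ranged from 0.0218% to 3.25% and was below 1% in 35 of the 38 embryos. A and G together ranged from 0.0482% to 2.02%. C was the most frequent of the other 3 bases in 22 embryos, G in 9 and A in 7. Of the 7 embryos in which A led, 4 were 4KO embryos: C7A was 0.819% and 0.626% in the E9.5 embryos number 1 and 2, 0.433% in E9.5 number 3 and 0.399% in E8.5 number 3. Unconverted C in these was 0.0345% to 0.145%, so in them more of the remaining reads had A than C at position 7. A as the only change there would give the lysine of Q469K. Shares per position do not show whether these reads are otherwise unchanged. G at position 7 reached 1.998% in a single embryo, E7.5 number 3 of 6KO, which is described with the other positions of its window below.

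At the level of samples, C7T was 99.44% and 99.40% in Dnmt1-KO, 99.32% and 99.63% in Dnmt-TKO, 99.12% and 98.92% in 4KO, and 98.46% and 99.77% in 6KO. A sample value is the mean over the 2 to 4 embryos that carry the number of the sample. The group means were 99.42% ± 0.0295 for Dnmt1-KO, 99.48% ± 0.215 for Dnmt-TKO, 99.02% ± 0.145 for 4KO and 99.11% ± 0.928 for 6KO (SD, n = 2 each). The 4KO samples were below all samples of Dnmt1-KO and Dnmt-TKO, whereas the 6KO samples lay on either side of them. Nothing says that embryos of a sample shared a litter or a day, so an SD here compares averages of small sets of embryos of differing stages.

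None of the differences in C7T between embryos with and without further sgRNAs passed the test after adjustment. With the Tet sgRNAs (4KO and 6KO) it was 99.07% ± 0.545 and without them 99.45% ± 0.13 (SD, n = 4 each). The difference was -0.38 percentage points (p = 0.229 in an exact two-sided permutation test, adjusted p = 0.64 by Benjamini-Hochberg over 14 tests). The size depended on single samples and embryos: it was -0.61 points without 6KO replicate 2 (exact p = 0.0286, the smallest that this test can give, adjusted p = 0.1), -0.18 points without 6KO replicate 1 and -0.081 points without the E6.5 embryo number 1 of 6KO. With the median over a sample's embryos in place of the mean it was -0.15 points. More editor mRNA was injected in 4KO and 6KO than in the other groups, per the study's supplementary list. The Tet sgRNAs and the amount of editor therefore cannot be told apart. In this and the other Tet contrasts, E10.5 embryos lie only on the side without the Tet sgRNAs. With the Dnmt3a and Dnmt3b sgRNAs (Dnmt-TKO and 6KO) C7T was 99.29% ± 0.588 and without them 99.22% ± 0.246 (SD, n = 4 each). The difference was 0.074 points (exact p = 0.857, adjusted p = 0.923). With the median over a sample's embryos it was 0.44 points, with the smallest p of this exact test (p = 0.0286, adjusted p = 0.2). It was 0.37 points without the E6.5 embryo number 1 of 6KO (exact p = 0.0857, adjusted p = 0.4), 0.35 points without 6KO replicate 1 and -0.084 points without 6KO replicate 2. Combined injection gave 99.20% ± 0.482 (n = 6) against 99.42% ± 0.0295 (n = 2) for the Dnmt1 sgRNA alone, a difference of -0.22 points (exact p = 0.571, adjusted p = 0.889). The difference was -0.33 points without 6KO replicate 2, -0.067 points without 6KO replicate 1 and -0.017 points without the E6.5 embryo number 1 of 6KO. Dnmt1-KO holds only E9.5 and E10.5 embryos and 6KO only E6.5 to E8.5, so stage and combined injection cannot be told apart. With E9.5 embryos only, which leaves out 6KO, the difference was 0.038 points. In the Dnmt3a and Dnmt3b contrast, E6.5 embryos lie only on the side with these sgRNAs and E10.5 embryos only on the other. The smallest p these designs allow is 0.0286 for 4 against 4 samples and 0.0357 for 6 against 2.

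Among the labelled embryos, C7T was lower at E8.5 than at E7.5 in 2 of the 3 tables that hold both stages. In Dnmt-TKO it was 99.91% and 99.82% at E7.5 and 97.89% and 99.21% at E8.5. In 4KO it was 99.54% and 99.24% at E7.5 and 98.71% and 98.36% at E8.5. The stages did not overlap among these embryos of either table, but they did with the embryos numbered 3, which have no labelled sample: those had 99.66% at E7.5 and 99.67% at E8.5 in Dnmt-TKO, and 99.35% and 99.40% in 4KO. In 6KO the labelled embryos overlapped, with 99.77% and 99.54% at E7.5 and 99.54% and 99.89% at E8.5. The embryos numbered 3 of 6KO went the other way, with 97.91% at E7.5 and 99.91% at E8.5. Over the labelled embryos of the 3 groups the difference was -0.70 percentage points (exact permutation of the stage within groups over 12 embryos, two-sided, p = 0.0463), which did not pass after adjustment (adjusted p = 0.324). The E8.5 embryo number 1 of Dnmt-TKO had the lowest C7T of its group, and without its sample, Dnmt-TKO replicate 1, the difference was -0.47 points. The labelled E9.5 embryos of Dnmt-TKO had 99.61% and 99.62%, between its labelled embryos of E7.5 and E8.5. Those of 4KO had 99.12% and 99.16%, above its labelled embryos of E8.5. At E9.5, number 3 had 98.88% in Dnmt-TKO and 99.23% in 4KO, each below the E8.5 embryo number 3 of its group.

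The bystander at position 3 was far more variable than the target. C3T ranged from 25% to 99% over the 38 edited embryos, with a median of 80%. It was at least 90% in 15 embryos, from 60% to below 90% in 14 and below 60% in 9. These shares are deposited to the nearest whole percent. C3T was below C7T in all 38 embryos. Over the 8 samples C3T was 78.61% ± 11.23 and C7T 99.26% ± 0.419 (SD, n = 8), and C3T was lower in 8 of 8 samples, with differences from -41.1 to -7.8 percentage points. The mean difference was -20.64 points, with the smallest p that the exact sign-flip permutation test over 8 samples can give (p = 0.00781). The adjusted p over the 14 tests was 0.109. This is the lowest that the test could reach unless other contrasts also had small p, so the adjustment could not call this difference alone.

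Since almost all reads had T at position 7, the C3T share also bounds the alleles. Reads that carried T at both positions made up at least C3T plus C7T minus 100%. This lower bound was 24.67% in the embryo with the least bystander conversion and 98.77% in that with the most, with a median of 79.45%. Because C3T is deposited to the nearest whole percent, the bound is only as exact as that rounding. The protein change of these alleles is the same stop, because C3T is synonymous and lies before it.

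**Figure D2:**
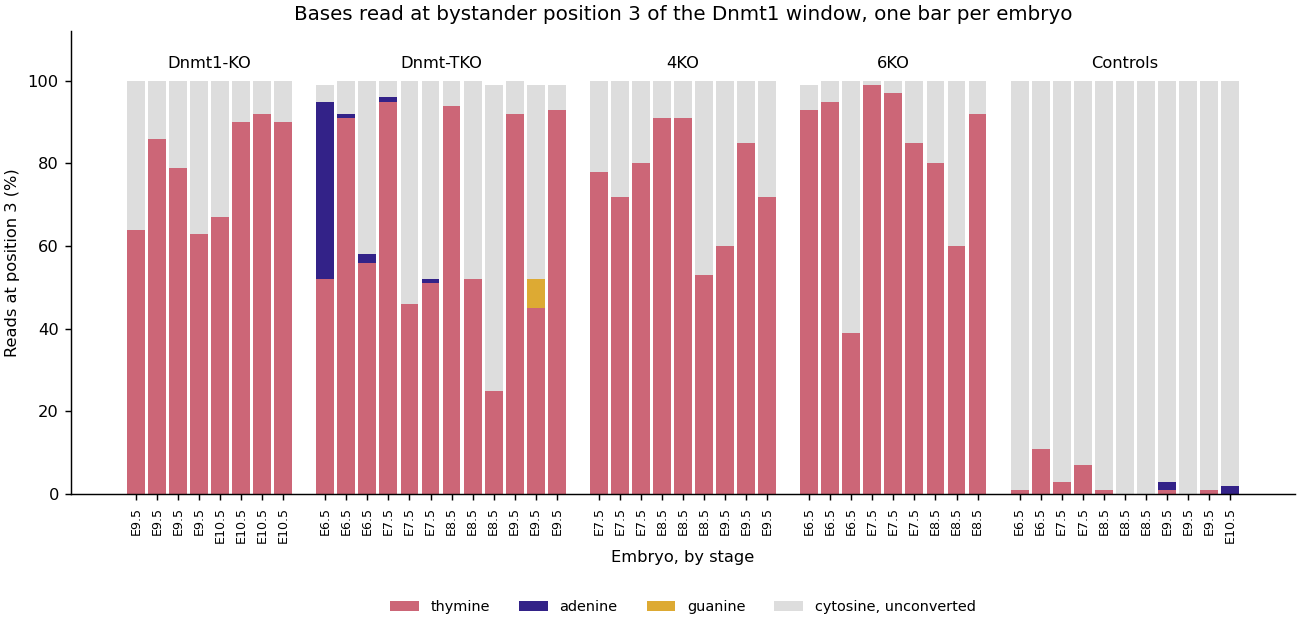
Bases read at position 3 of the Dnmt1 window (vertical axis, percent of reads), one stacked bar per embryo, by group and stage, with the 11 distinct control windows at the right. T ranges from 25% to 99% in edited embryos. A reaches 43% in an E6.5 embryo and G 7% in an E9.5 embryo, both of Dnmt-TKO. Some bars end at 99% because the shares are rounded.

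In Dnmt-TKO the C3T values fell into separate ranges. Of its 12 edited embryos, 5 had 91% to 95%, 6 had 45% to 56% and 1, E8.5 number 3, had 25%. No embryo of this group lay from 60% to below 90%. In the labelled embryos number 1, C3T was 52%, 95%, 94% and 92% from E6.5 to E9.5, and in those numbered 2 it was 91%, 46%, 52% and 45%. High and middle values thus occurred among the embryos of either number. The other groups filled the range in between. Of the 8 edited Dnmt1-KO embryos, 5 lay from 60% to below 90% (63% to 86%) and 3 at 90% to 92%. Among the 9 embryos of 4KO, 6 lay from 60% to below 90%, 2 were at 91% and 1 was at 53%. Of the 9 embryos of 6KO, 5 had at least 92%, 3 had 60% to 85% and 1, E6.5 number 3, had 39%. The number of embryos per group and the rounding set how finely such ranges can be seen, and the clustering was not tested.

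The samples of a group differed in C3T by 6.3 to 24.8 percentage points. C3T was 65.50% and 88.00% in the samples of Dnmt1-KO, 83.25% and 58.50% in Dnmt-TKO, 76.33% and 82.67% in 4KO, and 90.67% and 84.00% in 6KO. The means were 76.75% ± 15.91, 70.88% ± 17.50, 79.50% ± 4.48 and 87.33% ± 4.71 in that order (SD, n = 2 each). The lowest sample of Dnmt-TKO and the lower of Dnmt1-KO stood below all others, and 6KO had the highest mean.

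**Figure D3:**
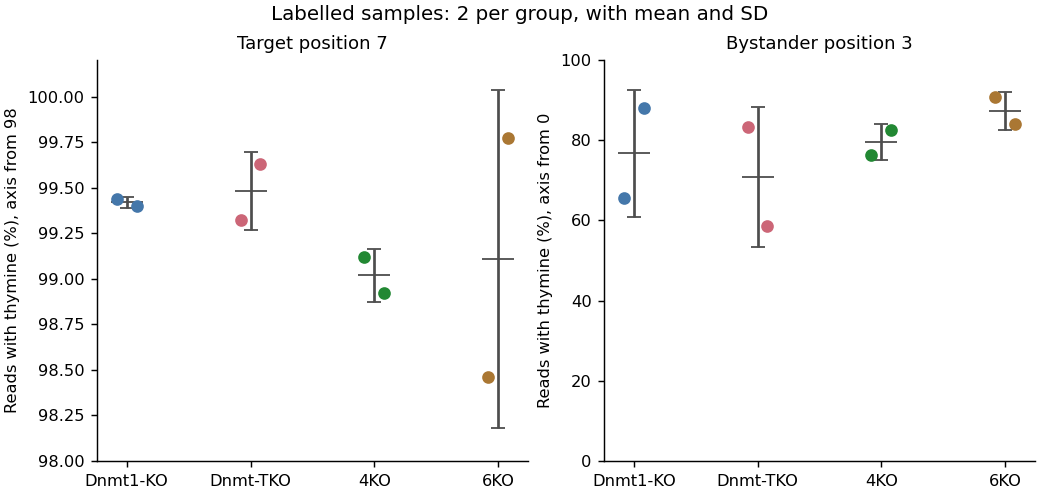
T share at positions 7 (left, enlarged axis that does not start at 0) and 3 (right, axis from 0%) of the Dnmt1 window in the 2 labelled samples of each group, with the mean (bar) and SD (whiskers). C7T lies between 98.46% and 99.77%, whereas C3T lies between 58.50% and 90.67%.

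None of the sgRNA contrasts of C3T passed the permutation test, before or after adjustment. C3T was 83.42% ± 5.88 with the Tet sgRNAs and 73.81% ± 14.07 without them (SD, n = 4 each), a difference of 9.60 points (exact permutation p = 0.286, adjusted p = 0.667). Without Dnmt-TKO replicate 2 this was 4.50 points. It was 79.10% ± 14.13 with the Dnmt3a and Dnmt3b sgRNAs and 78.12% ± 9.67 without them (n = 4 each), a difference of 0.98 points (exact p = 0.857, adjusted p = 0.923) that ran from -3.23 points without Dnmt1-KO replicate 1 to 7.85 points without Dnmt-TKO replicate 2. For combined injection it was 79.24% ± 11.13 (n = 6) and for the Dnmt1 sgRNA alone 76.75% ± 15.91 (n = 2). That difference of 2.49 points (exact p = 0.857, adjusted p = 0.923) changed sign when either only E9.5 embryos were used (-4.50 points) or Dnmt1-KO replicate 1 was left out (-8.76 points). Stage and combined injection cannot be told apart at this position either, nor can the Tet sgRNAs and the amount of editor.

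C3T showed no common direction between E7.5 and E8.5. In the labelled embryos it was 78% and 72% at E7.5 and 91% and 91% at E8.5 in 4KO, whereas it was 99% and 97% at E7.5 and 80% and 60% at E8.5 in 6KO. The embryos numbered 3 went the other way in each table, with 80% at E7.5 and 53% at E8.5 in 4KO and 85% and 92% in 6KO, so that the stages overlapped over all embryos. The labelled embryos of Dnmt-TKO had 95% and 46% at E7.5 and 94% and 52% at E8.5, which overlapped. Over the groups the difference was -3.17 points (exact permutation of the stage within groups, p = 0.815, adjusted p = 0.923). It was -6.17 points without 6KO replicate 1 and -0.17 points without 6KO replicate 2. The labelled E9.5 embryos of 4KO were at 60% and 85%, below its labelled embryos of E8.5. Those numbered 3 in 4KO went the other way, with 53% at E8.5 and 72% at E9.5.

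A and G at position 3, the other products of a deaminated C, appeared in Dnmt-TKO embryos. They reached at least 1% in 6 of its 12 edited embryos and were listed at 0 in all 26 edited embryos of the other groups. The E6.5 embryo number 1 had 52% T, 43% A and 4% unconverted C, so 95% of its reads were changed at this position although T alone was close to the middle range. In the E9.5 embryo number 2, 45% T stood beside 7% G and 47% C, and G is the product that changes the residue (I467M), ahead of the stop. The other 4 embryos had 1% or 2% A and no G: E7.5 number 1, E6.5 number 2, and numbers 3 at E6.5 and E7.5. All 3 E6.5 embryos of Dnmt-TKO were among the 6. None of the 38 embryos showed A above 0.819% at position 7, including that with 43% A at position 3, where C7A was 0.0165%.

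By sample, A plus G at position 3 was 11% and 2% in Dnmt-TKO and 0% in the 6 samples of the other groups. The contrast for the Dnmt3a and Dnmt3b sgRNAs, which also includes 6KO, gave 3.25% ± 5.25 against 0% (SD, n = 4 each, exact permutation p = 0.429, adjusted p = 0.75). The contrast for the Tet sgRNAs gave the same size with the opposite sign, -3.25 points (exact p = 0.429, adjusted p = 0.75). A single embryo makes up most of this value, which was 0.67 points without Dnmt-TKO replicate 1. In the controls, A at position 3 was 2% in both Dnmt1-KO controls and 0% in the others.

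The C outside positions 1 to 12 stayed almost free of T. At position 18, which follows T as the edited positions do, T was listed at 0 in 37 of 38 edited embryos and at 2% in the E9.5 embryo number 3 of Dnmt-TKO. T at position 16 was 1% in 4 embryos and 0 in 34. At position -2 it was 3% in the E6.5 embryo number 1 of 6KO and 0 in the other 37, and at position -3 it was 0 in all 38.

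At the 20 positions without C, 31 of 38 edited embryos had no non-reference share of 1% or more. The other 7 embryos, and 3 of the 11 controls, had such shares at 3 to 17 of these positions. The tables give shares per position, so whether the same reads differ at several positions is not measured. In 4 embryos of 4KO, E7.5 numbers 2 and 3 and E8.5 numbers 1 and 2, the same 9 bases were read at 1%: G12T, T13C, G14A, C16T, T17G, C18G, A19C, G20T and G22T. Positions -3 to 11 showed none. All 9 are the base that the reference has 5 positions further downstream, the letters of a read that lacks positions 12 to 16. Whether the reads have this deletion was not tested. The T at position 16 in these 4 embryos is part of this pattern.

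In both Dnmt1-KO controls the minority ran through the whole window at about 2%. The base read was that of the next position of the reference for 20 of 20 minority bases at E10.5 and for 20 of 22 at E9.5. These include the A at position 3 (2%) and at position 7 (1.782% and 2.303%), so A at those C was matched by the same share of shifted bases elsewhere in the window. In the E7.5 embryo number 3 of 6KO, 17 minority bases stood at 2%, among them the G at position 7 (1.998%), and 11 of the 17 matched the reference 4 positions downstream. In this embryo the G at position 7 therefore had the size of the minority at positions that hold no C.

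The E6.5 embryo number 1 of 6KO, the one with the lowest C7T, had 20 minority bases from position -3 to 22, with a median of 3%. Its unconverted C at position 7 was 3.25%. No offset up to 20 bases matched more than 9 of the 20, and the source of these bases was not tested. A further control, E8.5 of Dnmt-TKO, had 14 such bases with a median of 4%, of which at most 6 matched one offset. The E9.5 embryo number 3 of Dnmt-TKO had 5, between 1% and 2%. The tables have no line for insertions or deletions.

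**Figure D4:**
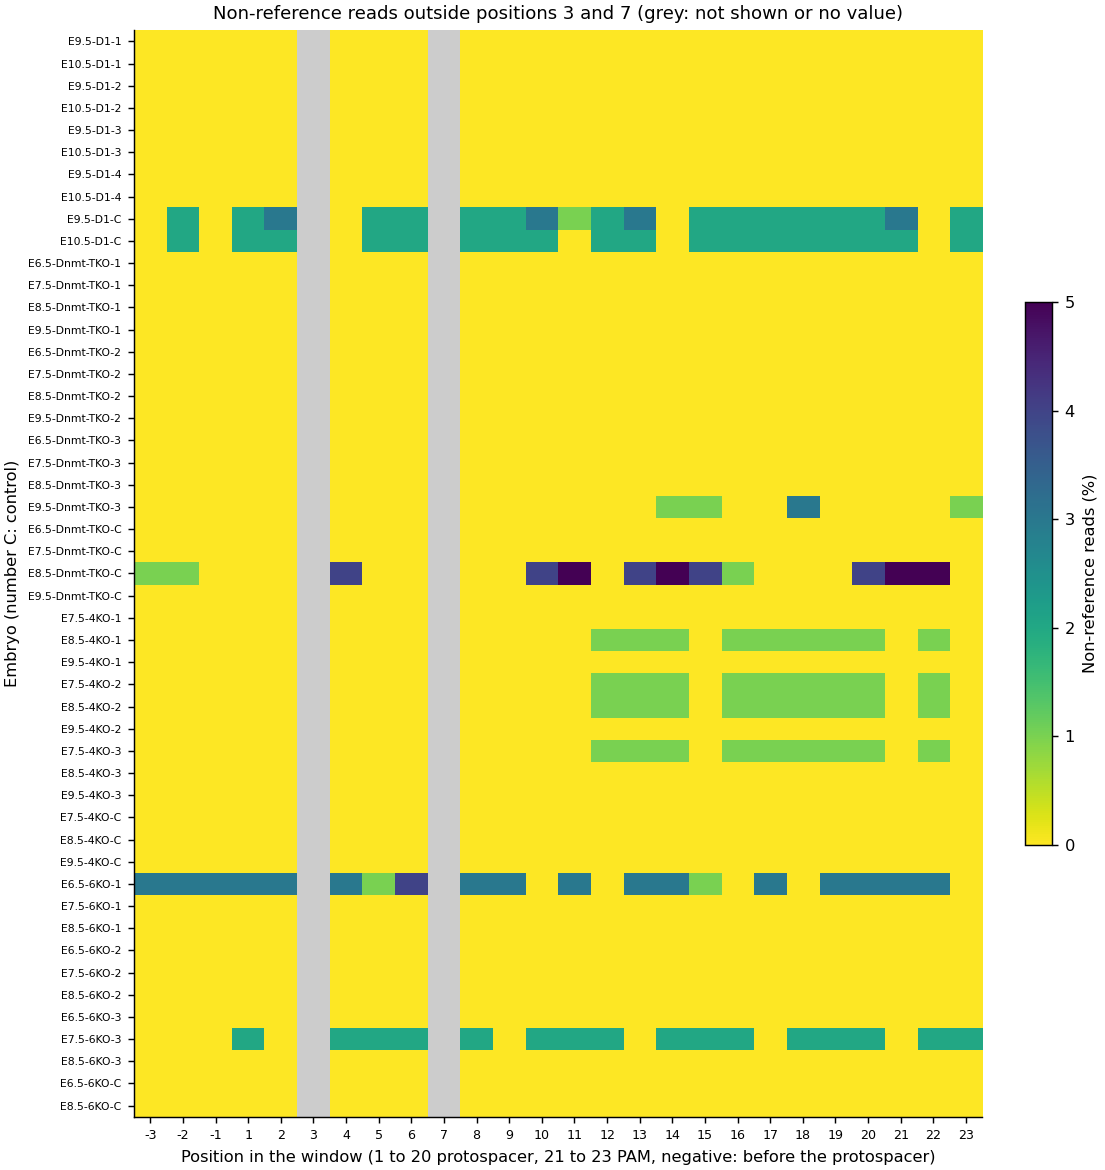
Share of non-reference reads (colour, percent) at each position of the Dnmt1 window (horizontal axis) in each embryo (rows, number C for controls), with positions 3 and 7 left out in grey. Most rows are at 0%. The 4 embryos of 4KO with the same pattern at 1% from position 12, both Dnmt1-KO controls at about 2%, and the E6.5 embryo of 6KO at about 3% stand out.

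As a mean over the positions without C, the non-reference share was 0% in the samples of Dnmt1-KO and Dnmt-TKO, 0.117% and 0.233% in 4KO, and 0.8% and 0% in 6KO. With the Tet sgRNAs it was 0.287% ± 0.355 and without them 0% (SD, n = 4 each), a difference of 0.29 points (exact permutation p = 0.143, adjusted p = 0.64). It was 0.12 points without 6KO replicate 1. For the Dnmt3a and Dnmt3b sgRNAs the difference was 0.11 points (exact p = 1, adjusted p = 1), and without the E6.5 embryo number 1 of 6KO it was -0.087 points.

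The Dnmt1 target was compared with the targets of the other sgRNAs in the same embryos. In 30 embryos that received further sgRNAs, C7T at Dnmt1 had a median of 99.54%, beside medians of 98.72% at Tet1, 99.53% at Tet2 and 99.39% at Tet3 (18 embryos each), and 98.17% at Dnmt3a and 98.87% at Dnmt3b (21 embryos each). Dnmt1 was the highest of its embryo's targets in 17 embryos, the lowest in 9 and in between in 4. This order depended on the table. Dnmt1 was highest in 11 of 12 Dnmt-TKO embryos and in 6 of 9 6KO embryos, whereas it was highest in 0 of 9 4KO embryos and lowest in 8 of them.

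By sample, Dnmt1 C7T exceeded the mean of the other targets by 1.13 and 2.26 percentage points in Dnmt-TKO and by 1.09 and 1.25 points in 6KO, whereas in 4KO the differences were -0.72 and -0.88 points. The other targets averaged 99.85% and 99.80% in 4KO and 97.37% to 98.52% in the samples of Dnmt-TKO and 6KO, so the other targets spanned a wider range between tables than Dnmt1 did. Over the 6 samples Dnmt1 stood at 99.20% ± 0.482 and the other targets at 98.52% ± 1.11 (SD, n = 6). The difference was 0.69 points (p = 0.219 in an exact two-sided sign-flip permutation test, adjusted p = 0.64). It was 0.37 points without Dnmt-TKO replicate 2. The set of other genes is not the same in each table, and genes within an embryo are not replicates. The E6.5 embryo number 1 of 6KO, with 96.06% at Dnmt1, also had the lowest values of these embryos at Tet1 (94.77%), Tet2 (93.21%) and Tet3 (94.75%), whereas its Dnmt3a and Dnmt3b targets were at 98.46% and 99.31%.

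**Figure D5:**
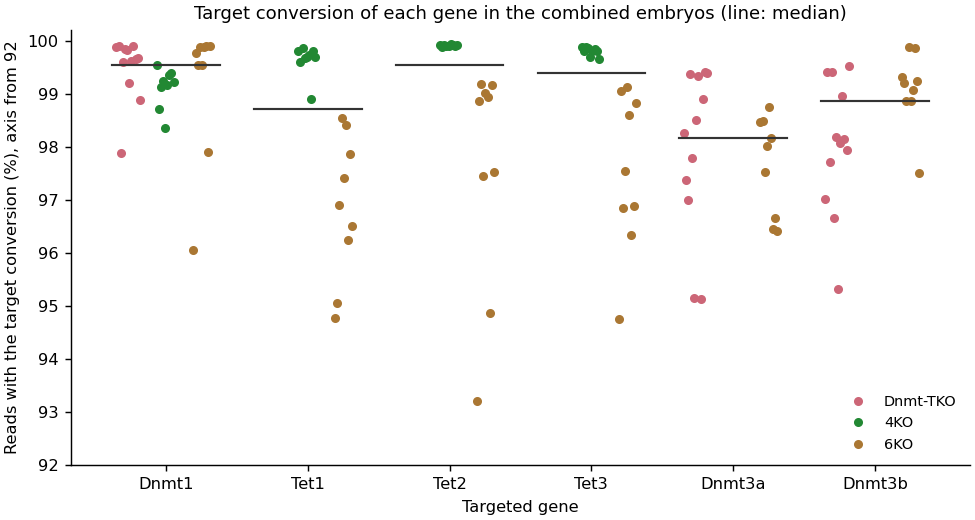
Share of reads with the target conversion (vertical axis, percent, not starting at 0) for each targeted gene in the 30 embryos that received several sgRNAs, coloured by group, with the median over embryos as a line. Dnmt1 lies above most other targets in Dnmt-TKO and 6KO and below the Tet targets in 4KO, where it is the lowest in 8 of 9 embryos.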

How the data were processed

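Genomic DNA of single embryos was amplified at each target site, barcoded, pooled and sequenced as paired-end reads. The deposited values are fractions from 0 to 1, in which the authors give how much each of the 4 bases contributed to the reads of an embryo and gene, for 26 reference positions. They are rounded to 2 decimals except at the target base. The submitters' processing notes name mm10; aligner, read filters and base calling are not given in the sources used here. Rounding limits a bystander share to about 1 percentage point, and without read depth or molecular identifiers no counting interval can be given.

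Dnmt1 blocks were read from 4 of 7 tables (Python 3.11.15). Embryos numbered 1 or 2 were assigned to the labelled sample of that number. Embryos with other numbers and controls were described only, without means or tests. The 14 contrasts were tested with exact two-sided permutation tests over samples, or over embryos within groups for the stage, and adjusted by Benjamini-Hochberg. The permutation code was tested on simulated data. Positions named are each C of the window and any other position with a non-reference share of at least 1%. Embryos are named where they are extreme in a group or stand apart. The guide was placed on GRCm38 and annotated with GENCODE. Minority bases of at least 1% were compared with the reference at offsets up to 20 bases in windows with 5 or more of them. The members, lists and tests were chosen with earlier results of these data known.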

Additional observations from a re-analysis of the deposited data

Results flagged for a closer look

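Among the labelled embryos of each group, measures at positions 7 and 3 were screened with Dixon's ratio for a single value far from the others. Of 9 combinations of group and measure, 3 were marked. The ratio marks about 1 in 20 groups by chance where values are normally distributed. Many of these shares lie near the ends of their range, so the rate here is not known. T at position 7 was 96.06% in the E6.5 embryo number 1 of 6KO (ratio 0.91 over 6 embryos), the embryo with about 3% of other bases at most positions. It was 97.89% in the E8.5 embryo number 1 of Dnmt-TKO (ratio 0.65 over 8 embryos), where unconverted C was 1.987% and no position without C had a non-reference share of 1% or more. A plus G at position 3 was 43% in the E6.5 embryo number 1 of Dnmt-TKO (ratio 0.84 over 8 embryos).

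The 14 embryos whose numbers belong to no labelled sample entered no sample mean and no permutation test. Their T share at position 7 was at least 97.91%, against at most 2.36% in controls.

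In 2 contrasts all samples of one group moved one way and all samples of another the opposite way, and the difference between the groups was not tested. Dnmt1 C7T lay below the mean of the other targets in both 4KO samples (mean -0.80 percentage points) and above it in both samples of Dnmt-TKO and of 6KO. From E7.5 to E8.5, C3T was lower in both 6KO samples (mean -28.00 points) and higher in both 4KO samples (mean 16 points). The embryos numbered 3 of the same tables, which have no labelled sample, went the other way, from 85% to 92% in 6KO and from 80% to 53% in 4KO.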

How the results depend on the processing

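No result passed an adjusted p of 0.05, in the main tests or under any of the settings tried (0 settings). Before adjustment, the Dnmt3a and Dnmt3b contrast of C7T was 0.44 points with the median over embryos (exact p = 0.0286) and 0.77 on the logit scale (exact p = 0.0857). The direction of differences close to 0 depended on the setting. For C7T, combined against alone was 0.11 points with the median over embryos, 0.21 on the logit scale and 0.038 points with E9.5 embryos only, and the Dnmt3a and Dnmt3b contrast was -0.013 points for T out of T plus C. The Dnmt3a and Dnmt3b contrast of the non-reference share was -0.087 points both with the median and without the E6.5 embryo number 1 of 6KO. For C3T, combined against alone was -4.50 points at E9.5. The settings with that embryo left out or with E9.5 embryos only were chosen after seeing the data.

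With each sample left out in turn, the Dnmt3a and Dnmt3b contrast ranged from -0.084 to 0.35 points for C7T, from -3.23 to 7.85 points for C3T and from -0.087 to 0.18 points for the non-reference share. Combined against alone ranged from -8.76 to 13.74 points for C3T. All other results kept their direction, and C3T stayed below C7T by -22.48 to -17.72 points.

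Samples with the same replicate number showed no common direction: between groups, their deviations correlated from -0.96 to 0.97 over 6 pairs of groups. With 2 samples per group, whose deviations mirror each other, this cannot show whether the numbers pair the samples. Permuting within replicate numbers as a block left all differences as they were, -0.38 points for C7T with the Tet sgRNAs for example, and changed no call. The stage difference of C7T then had an exact p of 0.0938. Restricting the contrasts between groups to E7.5 and E8.5 gave no value for 10 results, as Dnmt1-KO has no such embryos. Each group has 2 samples, and depth is unknown in all but 1 window.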
